A study of Mus musculus with 10 samples.

Results

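The comparison set ER-Hoxa9-Lys-GFP cells kept without estradiol (E2) for 40 h against cells kept without it for 24 h, E2 having been given back to both. It took 4 of the 10 libraries of the study, the 2 of each group, chosen by the withdrawal time in their labels. These are mouse myeloid progenitors of the C57BL/6 strain, grown in culture with medium conditioned with stem cell factor, and all groups carry the same fusion of Hoxa9 with the estrogen receptor's hormone-binding domain. The 24h group had E2 withdrawn for 24 h and restored for 96 h, and the 40h group had it withdrawn for 40 h and restored for 80 h. A longer withdrawal and a shorter time with E2 restored therefore cannot be told apart. For reference, the untreated group kept E2, the 72h group had it withdrawn for 72 h and restored for 48 h, and the 120h group had it withdrawn for 120 h with none restored. The cells are a single cultured line, and nothing in the labels tells if the 2 libraries of a group came from separate cultures, so p-values measure the spread between these libraries, which may be technical. In bulk RNA, fewer cells of a type and less RNA per cell cannot be told apart.

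As background, Hoxa9 is a homeodomain transcription factor of blood progenitors that blocks myeloid differentiation when it stays active. Joined to the receptor domain, it works while E2 is present, and its removal releases cells towards granulocytes and monocytes. Along that path, genes of primary granules (Mpo, Elane, Prtn3) are used early, those of secondary granules (Ltf, Camp, Ngp) later, and surface receptors for microbes and inflammation accumulate with maturity, while progenitor genes such as Kit, Cd34 and Flt3 are shut down.

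Values were RPKM, reads scaled to transcript length and library depth, of 1 transcript per gene, and differences are given on the log2(RPKM + 1) scale as 40h minus 24h, which understates the change of genes at low levels. Of 13004 genes tested with limma, 37 (0.285%) had a Benjamini-Hochberg adjusted p under 0.05 and are called changed here: 22 were higher (0.169%) and 15 lower (0.115%) in the 40h group. The median difference over all genes tested was 0.006. Depth differed little among the 4 libraries, whose denominators lay between 175630000 and 183590000 reads, and the median gene differed by 0.07396 between the 24h libraries and by 0.09151 between the 40h libraries (log2 scale, absolute). The 120h libraries differed more from each other (0.2476), and since all 10 libraries shared 1 estimate of the spread, they bore on every test. Without that group, 84 genes were called higher (0.646%) and 154 lower (1.18%), and all 37 were among them. Without either 24h library no gene passed in limma, with 518 (without replicate 1) and 956 (without replicate 2) at an unadjusted p under 0.05 against 1207 in the full data. Without 40h replicate 1, 4 genes passed. The counts under each way of fitting are plotted at the end.

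The genes that rose in the 40h group included Ly6c2, Tlr4 and Igsf6, which encode surface proteins of myeloid cells, and the enzyme Gda. Ly6c2 and Gda had the largest differences among the coding genes called. Those that fell included Fgf3 and Myl4, which had the largest differences downward among the genes called. Of the 22 higher genes 19 are protein-coding, as are all 15 lower ones, and 19 of the 22 had a mean under 5 RPKM in the 24h group. The ratio of mean RPKM, 40h over 24h, ran from 1.80 to 8.46 among the higher genes (median 2.63). Among the lower genes the 40h mean was between 39.1% and 65.7% of the 24h mean (median 54.1%). All 37 had both 40h libraries beyond both 24h libraries, where 23.7% of all genes tested had both 40h libraries above and 26.1% had both below. The call rests on the difference between these same libraries, so this separation is no independent support. The 40h replicate 1 library lay farther from the 24h group than replicate 2 in 18 of the 22 higher genes and 14 of the 15 lower ones.

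**Figure D1:**
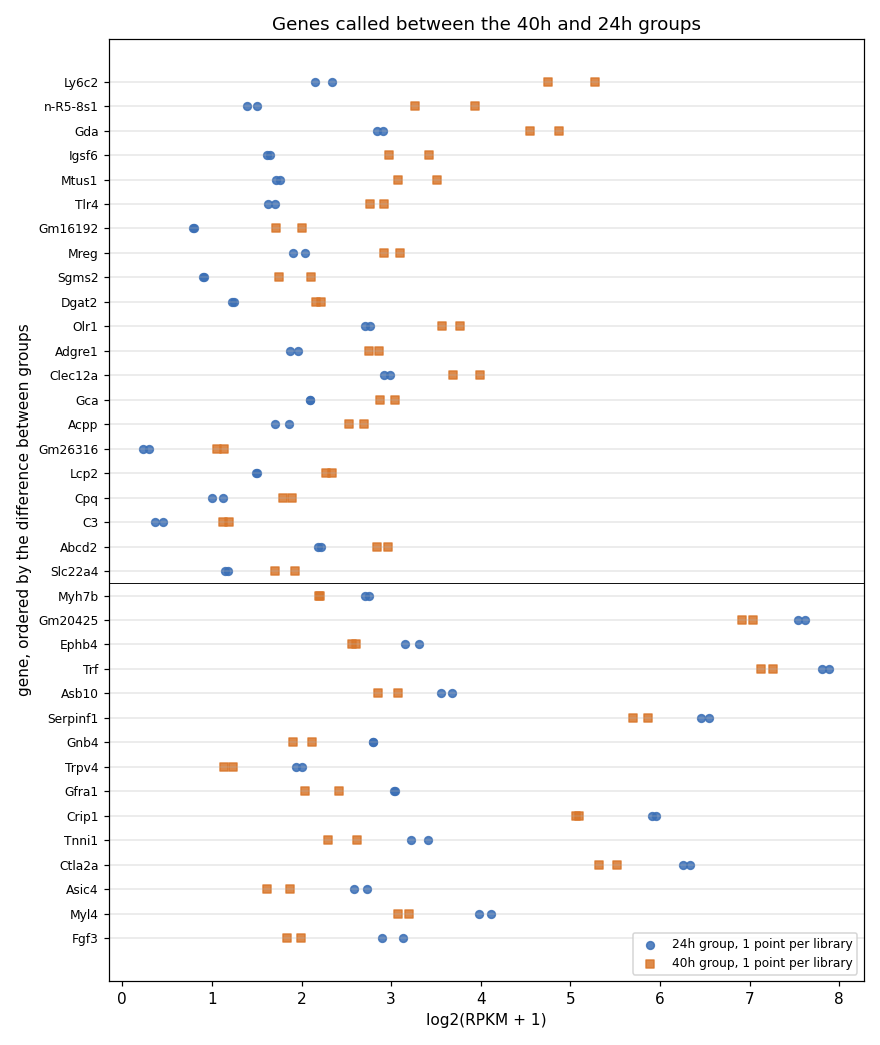
Level of 36 of the 37 called genes in the 4 libraries (x axis, log2(RPKM + 1); y axis, genes ordered by the difference; circles 24h, squares 40h, 1 point per library; the line separates the 21 higher genes shown from the 15 lower ones). In every gene shown the 2 squares lie to one side of the 2 circles.

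Promoter sequence is shown for the 2 highest and the 2 lowest called genes whose RefSeq start (GRCm38.p6) lay within 100 bases of the start of the transcript measured, so that the regions beside the largest changes can be read. Each run gives the 250 bases before the start, 5′ to 3′ on the gene's strand, with capitals marking letters of a motif searched on both strands: TTGCNNAA for C/EBP factors, AGGAAGT for PU.1 and TGATTNAT for Hox with Pbx. They lie at chr15:75111972-75112221 (minus strand) for Ly6c2, chr19:21472662-21472911 (minus) for Gda, chr7:144838362-144838611 (plus) for Fgf3 and chr13:60936626-60936875 (minus) for Ctla2a.
Ly6c2: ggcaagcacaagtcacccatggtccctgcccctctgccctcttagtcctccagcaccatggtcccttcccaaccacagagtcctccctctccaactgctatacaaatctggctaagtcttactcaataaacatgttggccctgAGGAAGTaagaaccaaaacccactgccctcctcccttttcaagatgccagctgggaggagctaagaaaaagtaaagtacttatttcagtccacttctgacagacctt
Gda: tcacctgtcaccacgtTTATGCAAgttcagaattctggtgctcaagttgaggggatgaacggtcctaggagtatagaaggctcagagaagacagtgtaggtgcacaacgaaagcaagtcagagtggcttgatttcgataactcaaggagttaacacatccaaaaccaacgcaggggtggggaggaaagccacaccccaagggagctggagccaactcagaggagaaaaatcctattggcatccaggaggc
Fgf3: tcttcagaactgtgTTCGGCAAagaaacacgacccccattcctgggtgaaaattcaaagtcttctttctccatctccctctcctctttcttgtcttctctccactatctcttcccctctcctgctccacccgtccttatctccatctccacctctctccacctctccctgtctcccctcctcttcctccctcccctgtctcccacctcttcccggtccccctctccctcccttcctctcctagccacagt
Ctla2a: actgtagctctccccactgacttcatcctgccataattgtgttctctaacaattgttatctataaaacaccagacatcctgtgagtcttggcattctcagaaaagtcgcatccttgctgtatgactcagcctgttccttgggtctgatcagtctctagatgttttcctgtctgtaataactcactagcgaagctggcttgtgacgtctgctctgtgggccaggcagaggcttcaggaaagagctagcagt
The Ly6c2 region held a PU.1 match starting 107 bases before the gene's start. Gda held a C/EBP match at 234 bases and Fgf3 at 236 bases, both on the reverse strand, and Ctla2a held no match. In all, 19 of the 37 called genes had such an entry. The C/EBP letters were in 2 of 11 higher and 1 of 8 lower genes, against 9.56% of 32851 promoters of the same length. PU.1 letters were in 1 of the 11 and 0 of the 8 (7.69% of all), and Hox-Pbx letters in 0 of either (2.83% of all). A match describes letters in this window and shows no binding.

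The surface proteins among the genes that rose are given before the other members. Ly6c2 (chromosome 15, 75108158 to 75111970, minus strand, GRCm38) encodes Ly6C, the antigen by which inflammatory monocytes are recognised and which granulocyte-monocyte progenitors also carry. It measured 4.05 and 3.45 RPKM in the 24h libraries and 37.6 and 25.8 in the 40h libraries. The lowest 40h library was thus well above the highest 24h library. The ratio of means was 8.46 and the log2 difference 2.76 (SE 0.21, adjusted p = 0.00669). Its neighbour Ly6c1 is nearly identical in sequence, so reads may be split between them. Ly6c1 measured 0.483 and 0.519 against 3.77 and 2.05 RPKM, and did not pass (log2 difference 1.34, adjusted p = 0.0527).

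Tlr4, the receptor for bacterial lipopolysaccharide (chromosome 4, 66827584 to 66930284), measured 2.25 and 2.10 RPKM at 24h and 6.58 and 5.79 at 40h. The groups were far apart against a small spread within each, and the log2 difference was 1.18 (SE 0.09, adjusted p = 0.00669). Igsf6, an immunoglobulin-superfamily membrane protein of myeloid cells, measured 2.06 and 2.13 against 9.70 and 6.86 RPKM, a log2 difference of 1.57 (SE 0.15, adjusted p = 0.0137). Its 40h libraries differed from each other more than its 24h libraries did, yet neither came near the 24h level. Clec12a, an inhibitory lectin receptor of granulocytes and monocytes, measured 6.94 and 6.54 against 14.9 and 11.9 RPKM (log2 difference 0.89, SE 0.11, adjusted p = 0.0333). Unlike the genes before it, Clec12a was lower at 24h than in the untreated libraries (8.42 and 8.24 RPKM), so the 24h values lay below both neighbours. Adgre1 encodes F4/80, a macrophage surface marker, and measured 2.88 and 2.66 against 6.26 and 5.74 RPKM (log2 difference 0.89, SE 0.12, adjusted p = 0.0389). Olr1, a scavenger receptor for oxidised lipoprotein, measured 5.80 and 5.55 against 12.6 and 10.8 RPKM (log2 difference 0.93, SE 0.13, adjusted p = 0.041). In both genes the groups did not overlap.

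The other higher genes named by the rule encode mainly enzymes and intracellular proteins. Gda encodes guanine deaminase, which turns guanine into xanthine (chromosome 19, 21391307 to 21473445). It measured 6.18 and 6.54 RPKM at 24h and 28.3 and 22.5 at 40h. The groups were far apart, with a log2 difference of 1.83 (SE 0.15, adjusted p = 0.00962). Mtus1, a microtubule-associated protein (chromosome 8, 40990914 to 41133726), measured 2.39 and 2.29 against 10.4 and 7.46 RPKM, and both 40h libraries were clear of the 24h range. Its log2 difference was 1.55 (SE 0.14, adjusted p = 0.0122). The called non-coding gene Gm16192 overlaps Mtus1 on the opposite strand, and the use of strand in counting is not given in the sources used here, so the 2 are uncertain as single genes. Mreg, which encodes melanoregulin, a protein of organelle and phagosome maturation, measured 3.10 and 2.74 against 7.58 and 6.55 RPKM (log2 difference 1.04, SE 0.14, adjusted p = 0.0404). Gca, grancalcin, a calcium-binding protein of neutrophils, measured 3.29 and 3.27 against 7.26 and 6.35 RPKM (log2 difference 0.86, adjusted p = 0.0389). In both genes the 24h values were close together and the 40h values higher by more than their own spread. Acpp encodes a transmembrane acid phosphatase and measured 2.63 and 2.25 against 5.48 and 4.75 RPKM (log2 difference 0.83, adjusted p = 0.0258). Abcd2, a peroxisomal carrier of very long chain fatty acids, measured 3.54 and 3.65 against 6.81 and 6.15 RPKM and had the smallest ratio among the higher genes (1.80, adjusted p = 0.0258).

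Other coding genes that rose stayed under 5 RPKM in both 40h libraries and are named here after their values were seen. Dgat2 and Sgms2 both make lipids. Dgat2, which makes triglyceride, measured 1.34 and 1.38 against 3.46 and 3.66 RPKM (adjusted p = 0.0333). Sgms2, a sphingomyelin synthase, measured 0.878 and 0.865 against 3.31 and 2.36 RPKM (adjusted p = 0.0333). C3, the central component of complement, was the least abundant coding gene called. It measured 0.283 and 0.366 against 1.28 and 1.17 RPKM, so its log2 difference of 0.75 (adjusted p = 0.041) stands beside a ratio of means of 3.79. Lcp2, the adaptor SLP-76 of immune receptor signalling, Cpq, a secreted peptidase, and Slc22a4, an ergothioneine transporter, had ratios of 2.16, 2.36 and 2.03. At this depth a single read on a transcript of 2 kb was worth 0.00272 to 0.00285 RPKM in these 4 libraries, so these low values rest on many reads.

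Of the higher genes, 2 are small non-coding RNAs and behaved differently across the study. n-R5-8s1, a 5.8S ribosomal RNA copy, measured 1.84 and 1.63 RPKM at 24h and 8.66 and 14.3 at 40h (log2 difference 2.16, SE 0.21, adjusted p = 0.0137). Gm26316 measured 0.178 and 0.229 against 1.07 and 1.20 RPKM (adjusted p = 0.0277). In the untreated, 72h and 120h libraries n-R5-8s1 lay between 1.03 and 1.66 RPKM and Gm26316 between 0.052 and 0.301, so the 40h libraries alone were high. Gm26316 reached 1 RPKM only in the 40h libraries and was tested only because of them. Its direction was thus set by the filter, and its call is no independent evidence. It was not called with a pseudocount of 0.1 or with limma voom on recovered reads. Ribosomal RNA copies are near identical, so reads of n-R5-8s1 cannot be assigned to 1 copy. These 2 were the only called genes among 196 small structured RNAs tested, whose median difference was 0.076. Of all genes tested, 0.285% were called. Of the 196, 39 had both 40h libraries above both 24h libraries and 17 had both below. Over all genes tested, 23.7% had both above and 26.1% had both below.

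Among the genes called lower, Fgf3 had the largest difference and Trf the highest level. Fgf3 encodes a fibroblast growth factor (chromosome 7, 144838083 to 144844436, plus strand). It measured 6.48 and 7.74 RPKM at 24h and 2.58 and 2.98 at 40h, leaving 39.1% of the 24h mean (log2 difference -1.10, SE 0.11, adjusted p = 0.0142). The groups did not overlap, and Fgf3 was the only gene called lower that was past a log2 difference of -1. Serpinf1, a secreted serpin that restrains vessel growth, measured 92.8 and 86.6 against 51.0 and 57.4 RPKM (log2 difference -0.72, SE 0.09, adjusted p = 0.0352). Trf, the iron carrier transferrin (chromosome 9, 103204001 to 103230444), was the most abundant lower gene with 236 and 222.7 against 139.2 and 152.6 RPKM (log2 difference -0.65, SE 0.09, adjusted p = 0.0446). Gm20425 overlaps Trf on the same strand and was called too (adjusted p = 0.0389), so these are not independent. Ctla2a, an inhibitor of cysteine proteases (chromosome 13, 60934155 to 60936625), measured 79.6 and 75.6 against 39.0 and 45.0 RPKM (log2 difference -0.88, SE 0.11, adjusted p = 0.0333). Crip1, a small LIM-domain protein, measured 59.0 and 61.0 against 33.2 and 32.5 RPKM (log2 difference -0.85, SE 0.11, adjusted p = 0.0336). Of these, Ctla2a kept 54.1%, Crip1 54.8%, Serpinf1 60.4%, Trf 63.6% and Gm20425 65.7% of the 24h mean, and the libraries of a group lay close together.

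Some of the genes that fell are best known from muscle. Myl4, a myosin light chain of embryonic and atrial muscle (chromosome 11, 104550663 to 104595753), measured 16.3 and 14.8 against 7.41 and 8.17 RPKM (log2 difference -0.91, SE 0.12, adjusted p = 0.0336). Tnni1, slow skeletal troponin I, measured 9.63 and 8.30 against 3.90 and 5.16 RPKM (log2 difference -0.85, SE 0.12, adjusted p = 0.0446). Myh7b, a myosin heavy chain named here after its values were seen, measured 5.52 and 5.76 against 3.57 and 3.62 RPKM (adjusted p = 0.0486). The 40h mean of Tnni1 was 50.5% and that of Myh7b 63.7% of the 24h mean, and in none of the 3 genes did a 40h library reach a 24h one. Asic4, of the acid-sensing ion channel family, measured 5.63 and 5.0 against 2.07 and 2.65 RPKM (log2 difference -0.91, SE 0.10, adjusted p = 0.0258). Gfra1, a receptor for the growth factor GDNF, measured 7.18 and 7.26 against 3.10 and 4.34 RPKM (log2 difference -0.81, SE 0.12, adjusted p = 0.0486). Gnb4, a G protein beta subunit, measured 5.95 and 5.94 against 2.74 and 3.34 RPKM (log2 difference -0.79, SE 0.09, adjusted p = 0.0258). The last of the named genes were Ephb4, an ephrin receptor, at 59.4% of its 24h mean and Asb10, an ankyrin-repeat protein, at 60.4%. The calcium channel Trpv4, outside the naming rule, stood at 43.5%.

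**Figure D2:**
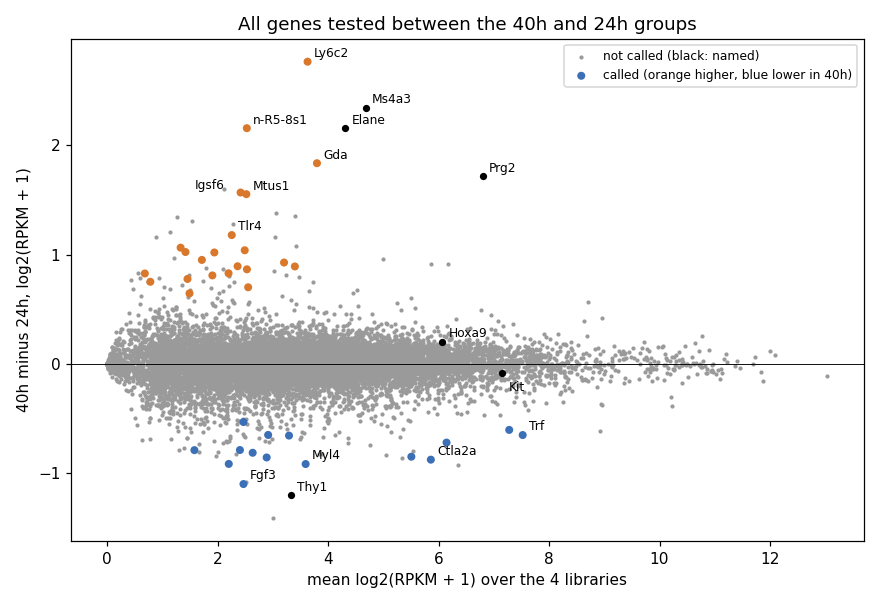
Difference between the groups (y axis, 40h minus 24h, log2(RPKM + 1)) against the mean level over the 4 libraries (x axis, log2 scale) for the 13004 genes tested, with called genes in colour. Elane, Ms4a3, Prg2 and Thy1 lie as far from 0 as the called genes but did not pass.

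The 2 largest differences that did not pass belonged to Ms4a3 and Elane, both in the primary granule list. Elane, neutrophil elastase, measured 8.25 and 8.59 RPKM at 24h and 44.6 and 37.5 at 40h (log2 difference 2.15, SE 0.42, adjusted p = 0.0986). Ms4a3, a membrane protein of granulocyte-monocyte progenitors, measured 10.7 and 10.1 against 76.7 and 41.9 RPKM (log2 difference 2.34, SE 0.38, adjusted p = 0.0556). Fcnb, ficolin B, measured 1.94 and 2.28 against 7.10 and 6.02 RPKM (log2 difference 1.28, adjusted p = 0.0877). The groups did not overlap in any of the 3, whose 120h libraries differed widely (94.1 and 32.2 RPKM for Elane). Without the 120h group each passed, at adjusted p = 0.00553 for Elane, 0.00781 for Ms4a3 and 0.0183 for Fcnb. The most abundant granule genes did not pass either way. Mpo, myeloperoxidase, measured 1815 and 1828 against 2031 and 1941 RPKM (log2 difference 0.12, adjusted p = 1.0), and Ctsg, cathepsin G, 1593 and 1597 against 2009 and 1809 (0.26, adjusted p = 0.972). Prtn3, proteinase 3, was between, with 348.4 and 333.9 against 561.5 and 456.2 RPKM (0.57, adjusted p = 0.741). Of 17 primary granule genes tested, 2 were called higher and 0 lower, beside 0.169% and 0.115% of all genes tested. Both, Igsf6 and Clec12a, encode surface receptors, and no granule protein of the list was called. The median difference was 0.197, and 11 had both 40h libraries above both 24h libraries, against 23.7% of all genes tested. Their summed level was 5376 and 5325 RPKM at 24h and 6653 and 5883 at 40h. This list and those below were chosen with earlier results of these data known, so their counts are no independent evidence of a direction.

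Genes of later neutrophil stages were described in the same way. Of 21 secondary granule genes 0 were called in limma. At an unadjusted limma p under 0.05, 5 were higher and 1 lower, beside 1207 of all 13004 genes tested in either direction. The list median was 0.076, and 12 of the 21 had both 40h libraries above, where 23.7% of all genes tested did. Of these 21 genes 12 stayed under 1 RPKM in all 4 libraries and were tested only because of their level in other groups. Changes at such levels are understated on this scale. The 9 that reached 1 RPKM had a median of 0.325, and none of them was called either. Mmp8, neutrophil collagenase, measured 5.04 and 3.39 against 13.8 and 11.1 RPKM (log2 difference 1.38, adjusted p = 0.0671), and Hp, haptoglobin, differed by 1.16 (adjusted p = 0.0535). Both passed without the 120h group, at 0.0145 and 0.0226. The defining genes of the stage were near 0 in all 4 libraries: Ltf (lactoferrin) lay between 0.188 and 0.304 RPKM, Camp (cathelicidin) between 0.132 and 0.246 and Ngp between 0.400 and 0.508. In the 120h libraries Ltf stood at 2188 and 2405 RPKM. S100a8, a subunit of calprotectin, measured 0.433 and 0.852 against 1.47 and 1.49 RPKM (adjusted p = 0.513), and was 6385 and 5695 at 120h. Of 26 tertiary granule and mature neutrophil genes 1 was called higher, where 0.169% of all genes tested were. Their median was 0.059, and 11 of the 26 stayed under 1 RPKM in the 4 libraries. Cebpe, the transcription factor of terminal granulocyte maturation, measured 9.64 and 9.51 against 17.2 and 11.6 RPKM and did not pass (adjusted p = 0.432).

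Of 35 monocyte and macrophage genes 2 rose, Ly6c2 and Adgre1, where 0.169% of all genes tested were called higher. The median was 0.067, and 18 had both 40h libraries above against 6 below, beside 23.7% and 26.1% of all genes. In this list 15 of the 35 stayed under 1 RPKM in the 4 libraries. Cd14, a co-receptor of Tlr4, measured 0.317 and 0.268 against 1.30 and 1.04 RPKM (adjusted p = 0.0944, and 0.0465 without the 120h group). Csf1r, the receptor of the main macrophage growth factor, measured 1.78 and 1.82 against 2.31 and 2.13 RPKM (adjusted p = 0.912). The summed level of the list was 976.1 and 929.9 RPKM at 24h and 926.8 and 913.6 at 40h, and 6 of its 38 members stayed under 0.1 RPKM, Fn1 and Msr1 among them. Of 35 genes of the NADPH oxidase and phagocyte receptors 2 rose, Tlr4 among them, with a median of 0.042. Of 17 mast cell, basophil and eosinophil genes 0 were called in limma, with 1 higher and 1 lower at an unadjusted p under 0.05, and 7 of the 25 listed stayed under 0.1 RPKM, Fcer1a among them. Prg2, the eosinophil granule major basic protein, measured 53.6 and 68.5 against 233.5 and 173.4 RPKM (log2 difference 1.72, SE 0.45), a gap without overlap that did not pass with (adjusted p = 0.221) or without the 120h group (0.0819). Among 37 myeloid transcription factors tested 0 were called in limma, with 4 higher and 3 lower at an unadjusted p under 0.05 and a median of 0.024. The unadjusted counts of this list and the mast cell list stand beside 1207 of all 13004 genes tested, in either direction. Tfec and Id1 passed without the 120h group, at 0.0125 and 0.039. Tfec, of the Mitf family, measured 6.5 and 6.21 against 17.2 and 12.2 RPKM, and Id1, an inhibitor of helix-loop-helix factors, 2.75 and 2.86 against 4.23 and 4.37. Spi1 (PU.1) measured 38.9 and 36.9 against 43.3 and 38.1 RPKM, with overlap between the groups.

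Genes of the progenitor state gave mixed values. Kit, the stem cell factor receptor, measured 139.8 and 151.7 RPKM at 24h and 125.7 and 150.5 at 40h. The groups overlapped, and the log2 difference was -0.08 (95% interval -0.57 to 0.41, adjusted p = 1.0). Cd34 measured 831 and 830.9 against 742.8 and 768 RPKM (log2 difference -0.14, adjusted p = 0.932), and Flt3, a cytokine receptor of early progenitors, 231.6 and 223.1 against 149.5 and 191.3 (-0.42, adjusted p = 0.358). Meis1, the DNA-binding partner of Hoxa9, measured 10.1 and 10.7 against 7.34 and 9.18 RPKM (log2 difference -0.30, 95% interval -0.60 to -0.01, adjusted p = 0.516). Hoxa9 and Esr1, whose reads may come from the fusion, from the cells' own genes or from both, measured 59.5 and 63.4 against 66.4 and 75.8 RPKM (0.20, adjusted p = 0.859) and 6.90 and 7.54 against 7.91 and 8.87 RPKM (0.19, adjusted p = 0.856). Neither passed, and the 95% intervals ran from -0.16 to 0.57 and from -0.15 to 0.53. Lyz2, the lysozyme gene named by the Lys-GFP label, stayed between 0.182 and 0.336 RPKM in the 4 libraries. Of 24 progenitor and Hoxa9-Meis1 genes 0 were called in limma. At an unadjusted limma p under 0.05, 8 were lower and 0 higher, beside 1207 of all 13004 genes tested in either direction. The list median was -0.113, and 12 of the 24 had both 40h libraries below, where 26.1% of all genes tested did. Mycn and Egfl7 passed without the 120h group. Mycn measured 0.979 and 1.37 against 0.296 and 0.394 RPKM, and Egfl7 46.8 and 40.1 against 22.7 and 25.1, with adjusted p of 0.0256 and 0.00833 there.

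Genes of lymphoid priming, which these progenitors transcribe alongside the myeloid ones, gave mostly negative differences, without any being called. Of 15 tested, 0 passed in limma and 9 were lower at an unadjusted p under 0.05, beside 1207 of all 13004 genes in either direction. In this list 11 had both 40h libraries below both 24h libraries, 0 had both above, and the median difference was -0.310. Over all genes tested, 26.1% had both below and 23.7% had both above. Thy1, a surface glycoprotein of T cells and early progenitors, measured 13.6 and 14.8 RPKM at 24h and 4.55 and 6.87 at 40h (log2 difference -1.20, SE 0.21, adjusted p = 0.0743). Dntt, terminal transferase, measured 6.14 and 5.23 against 2.68 and 2.85 RPKM (-0.82, adjusted p = 0.0793). Cd79a, a signal chain of the B cell receptor, differed by -0.67 (adjusted p = 0.0515) and Rag2, of the V(D)J recombinase, by -0.42 (adjusted p = 0.11). Those 4 passed without the 120h group, at 0.0125, 0.0437, 0.00781 and 0.0412. Cd3e, which defines mature T cells, reached at most 0.024 RPKM in the 4 libraries, and 10 of the 27 list members stayed under 0.1 RPKM. The list summed to 275.6 and 291 RPKM at 24h and 224.5 and 225.1 at 40h.

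Antigen presentation genes gave differences of the same sign. Of 13 genes of dendritic cells and MHC class II 0 were called in limma. At an unadjusted limma p under 0.05, 4 were lower and 0 higher, beside 1207 of all 13004 genes tested in either direction. Of the 13, 8 had both 40h libraries below, where 26.1% of all genes tested did, and the list median was -0.180. H2-Ob, a chain of the peptide-loading regulator, measured 7.66 and 6.95 against 2.17 and 3.85 RPKM (log2 difference -1.08, adjusted p = 0.0556, and 0.0284 without the 120h group). Ciita, the master regulator of the pathway, stayed under 0.1 RPKM. Of 9 erythroid and megakaryocyte genes 7 had both 40h libraries below (median -0.155), beside the same 26.1% of all genes tested. None passed in limma, with 3 lower at an unadjusted p under 0.05. Hba-a1 lay between 0.073 and 0.249 RPKM in the 4 libraries, and Hbb-bs between 0.091 and 0.233, so globin RNA was almost absent.

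Of 22 growth factor, matrix and adhesion genes 4 were called lower (Fgf3, Myl4, Crip1 and Serpinf1) and 0 higher. Over all genes tested 0.115% were called lower and 0.169% higher. The list median was -0.326, and 17 had both 40h libraries below, where 26.1% of all genes tested did. This list was drawn up knowing which of its genes had moved in these data, so its count is no independent evidence of a direction. Aebp1, a matrix-associated protein, measured 60.2 and 59.4 against 29.5 and 39.3 RPKM and was close to the threshold (adjusted p = 0.0528). Sdc4, a heparan sulfate proteoglycan, measured 1.92 and 1.72 against 0.619 and 0.902 RPKM and was farther from it (adjusted p = 0.201). Both passed without the 120h group (0.0224 and 0.0191).

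Growth and housekeeping lists held many genes with small differences. Over all genes tested, 23.7% had both 40h libraries above both 24h libraries and 26.1% had both below. Ribosome biogenesis and Myc target genes had 32 of 37 with both above and 0 below, at a median of 0.181. Of them 0 were called in limma, with 2 higher at an unadjusted p under 0.05. Npm1, nucleophosmin, measured 1320 and 1349 against 1517 and 1465 RPKM (adjusted p = 0.97) and Rrp12, a ribosome assembly factor, 16.7 and 17.9 against 22.8 and 22.7 (0.38, adjusted p = 0.586). Rrp12, Nop58 and Odc1 passed without the 120h group (0.0215, 0.0489 and 0.0439). Myc itself measured 188.4 and 180.7 against 185.7 and 199.8 RPKM, with overlap. In the cell cycle lists the median was 0.011 over 42 S phase genes and -0.024 over 35 genes of G2 and M phase, with 0 called in limma and 0 at an unadjusted p under 0.05 in either. Glycolysis and hypoxia genes had 18 of 29 with both 40h libraries below (median -0.136), lysosome genes 16 of 30 (-0.100) and interferon-stimulated genes 17 of 35 (-0.073). These counts stand beside 26.1% of all genes tested. Of the interferon-stimulated genes, 21 of the 35 stayed under 1 RPKM in the 4 libraries. In the glycolysis, lysosome and interferon lists 0 were called in limma, with 6, 5 and 1 lower at an unadjusted p under 0.05. Mitochondrially encoded genes took 2.06 and 1.67% of coding RPKM at 24h and 2.11 and 1.86% at 40h, so replicate 1 was the higher library in both groups. Their median difference was 0.142 over 11 genes. The last lists had medians of -0.122 (32 AP-1, Egr and immediate early genes), 0.037 (29 of cholesterol synthesis), 0.157 (25 of Atf4 and one-carbon metabolism), -0.001 (22 cytokines and chemokines), 0.015 (36 of polycomb and DNA methylation) and 0.019 (24 apoptosis regulators). In each 0 were called in limma, with 3, 1, 5, 0, 4 and 2 genes at an unadjusted p under 0.05. All such counts in these growth and housekeeping lists stand beside 1207 of all 13004 genes tested, in either direction. In every list where limma on log2(RPKM + 1) called 0 genes, limma voom on the recovered reads also called 0.

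**Figure D3:**
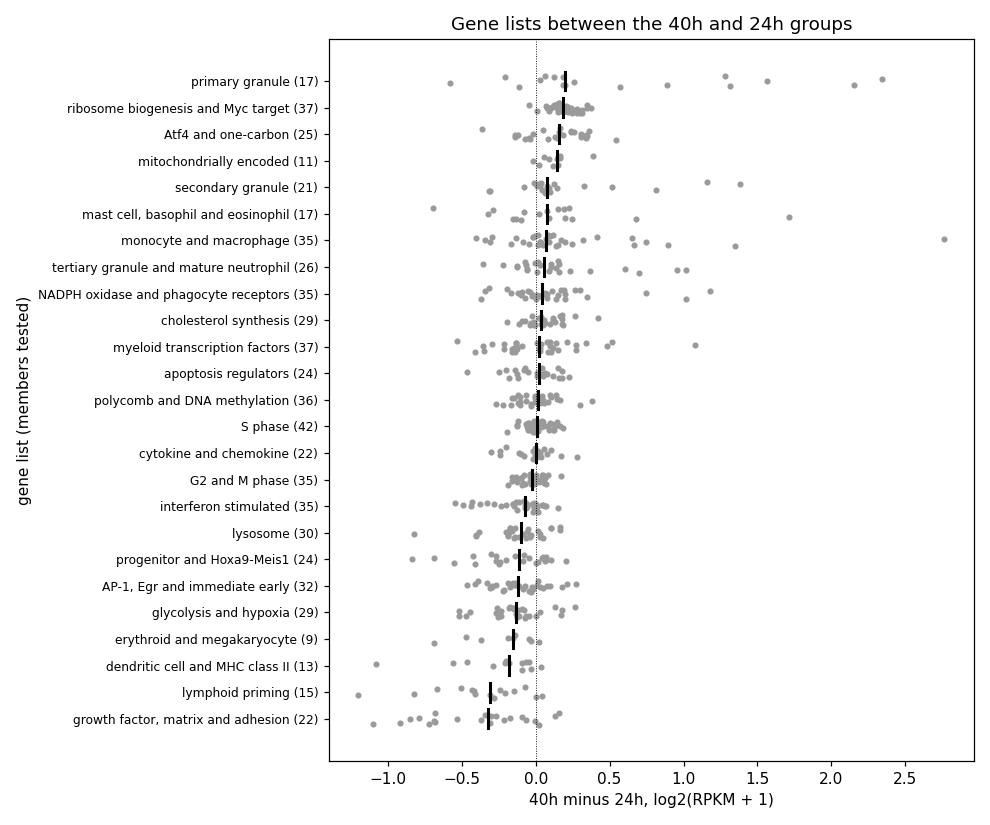
Difference between the groups (x axis, 40h minus 24h, log2(RPKM + 1)) for each tested member of 25 gene lists (grey points) and the list median (black bar), with the members tested in brackets. List medians run from -0.326 for growth factor, matrix and adhesion genes to 0.197 for primary granule genes. Over only the members that reached 1 RPKM in at least 1 of the 4 libraries, they run from -0.409 (lymphoid priming) to 0.325 (secondary granule).

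The direction of the called genes was set beside libraries that the comparison did not use. Of the 22 genes that were higher, 20 were also called higher in the 72h group against untreated cells, where 21.6% of all genes tested were, and 20 in the 120h group against untreated cells, where 27.5% were. The exceptions were n-R5-8s1 and Gm26316 both times. All 15 lower genes were called lower in both, where 22.3% and 52.7% of genes were. The differences in these comparisons share no library with 40h against 24h, but the estimate of the spread is shared. A gene with a small spread is favoured in each, so the overlap of calls is not independent. As a share of the other lists, the 20 genes made up 0.714% of the 2803 higher at 72h and 0.558% of the 3582 higher at 120h, and the 15 made up 0.516% of 2905 and 0.219% of 6858 lower ones. The median of the 22 was 3.56 in the 72h contrast and 4.40 in the 120h contrast, beside 0.018 and -0.36 over all genes tested, and the 15 had medians of -2.97 and -3.48.

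The levels of the leading genes were set beside the untreated and 72h libraries. Ly6c2 measured 0.571 and 0.683 RPKM in untreated cells and 568 and 608.3 at 72h, beside 37.6 and 25.8 at 40h. Gda measured 2.51 and 3.66 untreated and 174.7 and 198.9 at 72h, and Tlr4 1.09 in both untreated libraries and 24 and 24.6 at 72h. The 24h libraries of all 3 lay above the untreated ones, and the 40h libraries between the 24h and the 72h ones. Fgf3 measured 12 and 13.3 untreated and 0.248 and 0.152 at 72h, and Myl4 28.3 and 22.9 untreated and 0.493 and 0.329 at 72h, so both stepped down from group to group. Ctla2a measured 91.3 and 94.3 untreated, beside 79.6 and 75.6 at 24h and 39.0 and 45.0 at 40h. In all 20 higher genes other than the small RNAs, and in all 15 lower genes, both 72h libraries lay beyond both 40h libraries in the direction of the call. The share of all genes tested with this separation was not counted, so how usual it is cannot be told.

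**Figure D4:**
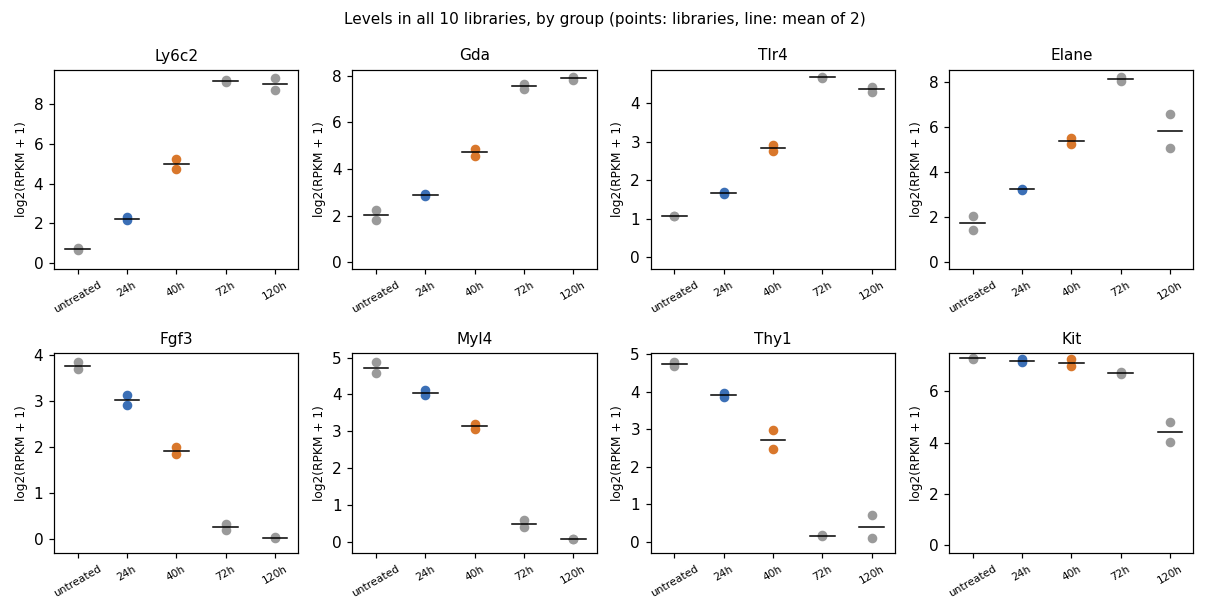
Level (y axis, log2(RPKM + 1)) of 8 genes in all 10 libraries by group (x axis; points are libraries, lines the mean of 2; 24h blue, 40h orange). Ly6c2, Gda, Tlr4 and Elane step up and Fgf3, Myl4 and Thy1 step down from untreated to 72h, and Kit overlaps between 24h and 40h.

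How many genes passed depended on which libraries set the spread, while the direction of the 37 did not change under any of 21 alternative fits that tested them. Ly6c2, Mtus1 and Tlr4 were called in 19 of the 21, failing only without either 24h library. Gda was called in 18. At the other end Myh7b was called in 5, Asb10 in 6 and Trf in 7. With the smaller pseudocount of 0.1 the split was 34 higher and 4 lower. With 120h replicate 1 left out 82 were higher and 151 lower, and with replicate 2 left out 86 and 151.

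**Figure D5:**
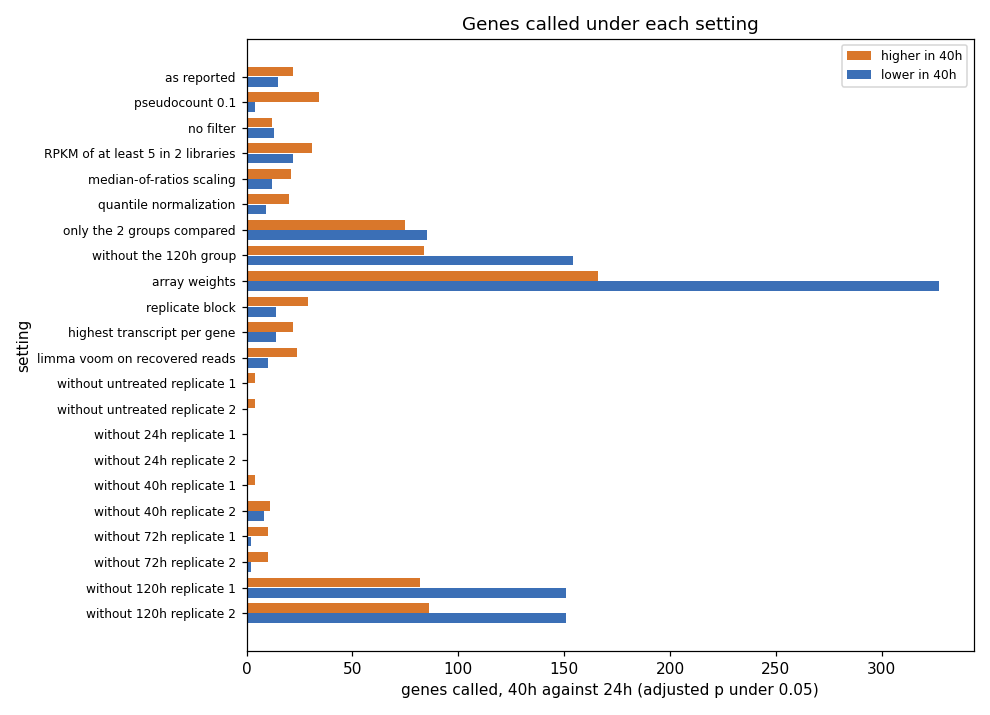
Genes called between the 40h and 24h groups (x axis, number with adjusted p under 0.05) under each setting (y axis), higher in 40h in orange and lower in blue. The counts run from 0 and 0 without either 24h library to 166 and 327 with array weights.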

How the data were processed

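RNA of 10 libraries was sequenced from TruSeq preparations, per the labels' protocols. The submitters' processing notes name STAR and the GRCm38 build. The deposited values are RPKM for 79535 transcripts per library, per the file headers. The counting program, annotation release, strand use and filter were not given in the sources used here. Transcripts were matched to GENCODE M21 without version numbers (77720 matched, 97.7%), and 1 transcript per gene was taken from the annotation, coding and principal first. Low values were whole multiples of 1 read in 99.3 to 100% of 879 to 1117 values per library (tolerance 0.02 reads), which gave denominators of 173620000 to 204390000 reads.

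Genes reaching 1 RPKM in 2 or more libraries (13004) were tested on log2(RPKM + 1) with limma 3.58.1 in R 4.3.3 (group as the only term, all 10 libraries sharing the spread, trended eBayes with 5 residual and 3.04 prior degrees of freedom), 2-sided, with Benjamini-Hochberg adjustment over all of them. The text names Hoxa9, Meis1, Esr1, Lyz2 and Kit, the 12 highest and 12 lowest called coding genes with a mean of at least 5 RPKM in the higher group and no overlap, and called and abundant members of 25 lists. A few of these are left out of the text. Other names were chosen after their values were seen. Groups, lists and tests were chosen with earlier results of these data known. Alternatives changed the pseudocount, filter, scaling, transcript, libraries, weights and model. Scripts were tested on simulated data.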

Additional observations from a re-analysis of the deposited data

How the results depend on the processing

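The 37 genes called between 40h and 24h kept their direction in each of 21 alternative fits that tested them. Their groups did not overlap, so leaving out a library or changing the pseudocount, filter, weights or block could not have reversed it. A filter of 5 RPKM tested 35 of the 37. The number called depended on the libraries that set the spread (the cause was not tested). Genes called in all, higher and lower, were 160, 75 and 85 with only the 4 libraries compared, 238, 84 and 154 without the 120h group and 493, 166 and 327 with array weights. The split was 34 higher and 4 lower with a pseudocount of 0.1, 12 and 13 with no filter, and 20 and 9 with quantile normalization, beside 22 and 15 as reported. Leaving out each library in turn gave 0 to 237 genes in all, 0 to 86 higher and 0 to 151 lower: 0 without either 24h library, 4 without either untreated library or 40h replicate 1, 12 without either 72h library, 19 without 40h replicate 2, and 233 and 237 without 120h replicates 1 and 2. Where a group was left with 1 library, that library was assumed to vary like the other groups. Of the 37 genes, 9 remained called with no filter, 25 with a pseudocount of 0.1 and 25 with quantile normalization. A stricter filter of 5 RPKM called 53, median-of-ratios scaling 33, the highest transcript 36 and limma voom on recovered reads 34. With the replicate number as a block 43 genes were called (29 higher, 14 lower), and 31 of the 37 remained. Differences between replicates 1 and 2 correlated across genes between groups by 0.034 to 0.639, above 0.1 in 8 of 10 pairs of groups (0.214 between 24h and 40h). Since this did not hold for every pair and no label ties the numbers to a shared culture or day, the block was kept as an alternative. Of the 120h and 72h contrasts against untreated, the first stayed within 1.5 times its count, and the second ranged from 3583 to 7877 called genes when a library was left out (3604 and 3583 without untreated replicates 1 and 2, and 3777 without 72h replicate 2). Kit turned to 0.061 with the highest transcript and ranged from -0.211 to 0.047 when a library was left out, positive without 40h replicate 1. Lyz2 ranged from -0.003 (without 40h replicate 2) to 0.128, and neither gene was called. Depth was not varied, and 1 read on a transcript of 2 kb was worth 0.00245 to 0.00288 RPKM.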

Other observations

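Further genes did not pass between 40h and 24h with all libraries but passed without the 120h group, and they are given as values chosen after they were seen. Some were highest in the 72h libraries. Tfec measured 85.3 and 81.9 RPKM at 72h and 34.0 and 21.7 at 120h (40h against 24h, adjusted p = 0.0933 with all libraries and 0.0125 without the 120h group). Far2, a fatty acyl-CoA reductase, measured 1.41 and 1.54 RPKM at 24h, 7.71 and 5.42 at 40h, 51.9 and 50.4 at 72h and 17.2 and 8.77 at 120h (0.0709 and 0.00781). Met, the hepatocyte growth factor receptor, measured 3.96 and 3.84 against 6.53 and 5.95 RPKM, with 17.2 and 15.9 at 72h and 3.57 and 2.65 at 120h (0.11 and 0.0175). In all 3 the 120h libraries lay below the 72h ones.

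Gsn, the actin-severing protein gelsolin, ran the other way. It measured 120.8 and 102 RPKM at 24h, 53.4 and 63.1 at 40h, 18.1 and 25.5 at 72h and 383.8 and 355.2 at 120h (40h against 24h, log2 difference -0.92, adjusted p = 0.0743 with all libraries and 0.0352 without the 120h group). H2-DMa, an MHC class II peptide-loading chain, measured 28.9 and 25.6 against 19.8 and 19.0 RPKM, then 7.57 and 7.78 at 72h and 48.1 and 53.6 at 120h (0.0855 and 0.0222). Clu, the secreted chaperone clusterin, had the lowest log2 difference of the genes named here, -1.41, from 14.3 and 10.1 to 3.17 and 4.78 RPKM (0.11 and 0.0175). Its 24h libraries were the most unequal of these 3 genes.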
